A study of Homo sapiens with 18 samples.

Results

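Wild-type POU2F3 was added to cells that still made their own, and the transcriptome of these cells was set against that of cells with an empty vector. The cells were NCI-H211 with Cas9, grown from a small cell lung cancer whose subtype expresses POU2F3 and resembles tuft cells. The comparison covered 13293 of the 19741 genes in the table, those with a mean of at least 1 TPM, an abundance scaled for transcript length and library total, over 6 of the 18 libraries of the series. The genes nearest that limit were GRIK1 and OPRM1 just inside, with means of 1.00 TPM each, and PRB3 and RASGRP2 just outside, with 0.999 TPM each.

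The WT libraries (3) came from a line that stably expressed a CRISPR-resistant wild-type POU2F3 cDNA, and the empty vector libraries (3) from a line with the control vector. Both lines had been infected with a lentivirus carrying sgRosa, a negative control guide that left endogenous POU2F3 intact, and RNA was taken 5 days later from cultures in which nearly all cells carried the guide's mCherry marker. The other libraries of the series (12) came from the same lines with sgPOU2F3, a guide against endogenous POU2F3, and from a line with the L191A mutant cDNA under either guide. Each group was 1 stable line infected in triplicate, so the p-values measure the spread between infections of that line. An effect of the cDNA and any other difference between the WT and the empty vector line cannot be told apart in this design. The labels do not say whether a line was 1 clone or which promoter drove the cDNA.

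POU2F3 is a POU-domain transcription factor that binds the octamer motif and specifies tuft cells, the rare chemosensory cells of airway and gut epithelium. Tuft cells sense their surroundings with the taste pathway: receptors couple to the G protein gustducin, phospholipase C beta 2 releases calcium through an inositol trisphosphate receptor, and calcium opens the channel TRPM5. POU2F3 works with the coactivators encoded by C11orf53 (POU2AF2) and COLCA2 (POU2AF3), relatives of the B-cell coactivator POU2AF1. In small cell lung cancer, POU2F3 marks a subtype with low neuroendocrine gene expression.

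POU2F3 itself, at chr11:120236640-120319944, plus strand in GRCh38, had 1701, 1880 and 1796 TPM in the WT libraries, against 682, 654 and 853 TPM in the empty vector libraries. The groups did not overlap, and POU2F3 rose 2.46-fold by the ratio of means (log2 difference 1.30, SE 0.13, limma adjusted p = 5.63e-05, 95% interval 1.02 to 1.59). The call was lost with a spread from all 18 libraries (limma adjusted p = 0.123). It held with a spread from 16, without L191A sgRosa replicate 1 and WT sgPOU2F3 replicate 1 (limma adjusted p = 7.46e-07). Those libraries stood apart from the rest, as described below. The two-sided exact permutation test over the 6 libraries gave p = 0.1, the smallest that 3 libraries against 3 can give. Reads from the cDNA may be counted as POU2F3, so the levels of the endogenous gene and the cDNA cannot be told apart. Its partners did not pass the test. C11orf53 averaged 644 ± 65.8 TPM in WT cells and 601 ± 19.4 TPM in empty vector cells (SD, n = 3 each here and below; limma adjusted p = 0.535). COLCA2 averaged 13.2 ± 1.51 TPM in WT cells and 13.2 ± 0.427 TPM in empty vector cells (limma adjusted p = 0.959), and POU2AF1 averaged 1.20 ± 0.227 TPM in WT cells and 1.36 ± 0.526 TPM in empty vector cells (limma adjusted p = 0.763). The ubiquitous family member POU2F1 averaged 8.11 ± 0.820 TPM in WT cells and 8.23 ± 0.975 TPM in empty vector cells (limma adjusted p = 0.944). The lymphoid member POU2F2 was below the level limit and not tested, at 0.840, 0.865 and 1.29 TPM in WT libraries against 0.438, 0.389 and 0.753 TPM in empty vector libraries.

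The 6 libraries separated by line on the first principal component, which held 70.3% of the variance. Ribosomal protein genes took 17.6%, 22.3% and 22.5% of TPM in WT replicates 1 to 3 and 21.02%, 22.4% and 17.3% in empty vector replicates 1 to 3, so WT replicate 1 and empty vector replicate 3 stood apart from the rest in the same way. The same pair favoured longer transcripts: each doubling of length raised the log2 level by 0.0458 in WT replicate 1 and by 0.0877 in empty vector replicate 3 against the other replicates of the group, while these slopes lay between -0.0619 and -0.0193 in the other libraries. TPM columns sum to the same total, so sequencing depth is unknown and no counting error can be given. In bulk RNA, fewer cells of a type and less RNA per cell cannot be told apart.

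Across the 13293 genes tested, limma called 3868 (29.1%) at an adjusted p under 0.05. Of these, 2548 (19.2% of genes tested) were higher in WT cells and 1320 (9.93%) were lower, and the median log2 difference of all genes was 0.08. Large differences ran mostly upwards: 478 genes (3.6%) were higher by at least 2-fold and 100 genes (0.752%) were lower by at least 2-fold. The groups did not overlap for 5794 genes (43.6%). The upward lean depended on the scaling, since 65.9% of called genes were higher with TPM as deposited, 51.3% after median-ratio scaling and 47.8% after quantile normalization. The last moved the median of all genes by just over 0.1, to -0.03, so small positive differences below lie within that shift. Called genes numbered 2555 without WT replicate 2, 2451 without WT replicate 3, 2117 without empty vector replicate 1 and 5880 without empty vector replicate 3. A spread estimated over all 18 libraries gave 1021, and one over 16, without L191A sgRosa replicate 1 and WT sgPOU2F3 replicate 1, gave 4596.

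**Figure D1:**
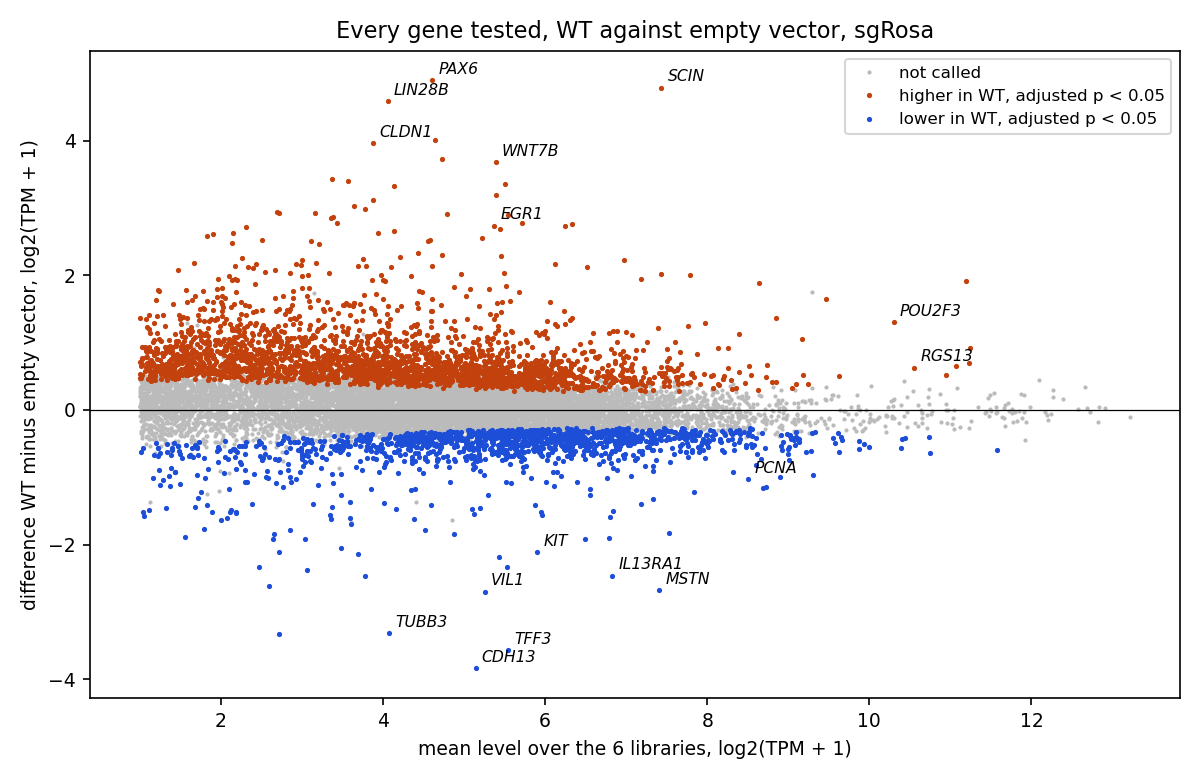
Each point is 1 of the genes tested. The x axis is the mean level over the 6 libraries as log2(TPM + 1) and the y axis is the log2(TPM + 1) difference, WT minus empty vector. Coloured points were called by limma, 2548 of them higher and 1320 lower in WT cells, and the genes far above the mass are PAX6, SCIN and LIN28B.

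The calls varied with level and transcript length. Among genes with a mean of 1 to 5 TPM, 26.4% were higher and 4.26% lower in WT cells, whereas among genes above 100 TPM 10.3% were higher and 19.6% lower. Among genes with transcripts above 4 kb, 23% were higher and 5.45% lower, and among those under 1 kb 16.4% were higher and 11.4% lower. The abundant end was led by TMSB10, which encodes the actin-binding thymosin beta 10 and fell to 2414 ± 234 TPM in WT cells, against 3696 ± 698 TPM in empty vector cells (log2 difference -0.60, SE 0.17, limma adjusted p = 0.0228). YBX3, a cold-shock domain RNA-binding protein, rose to 3146 ± 509 TPM in WT cells, against 1685 ± 384 TPM in empty vector cells (log2 difference 0.91, SE 0.18, limma adjusted p = 0.0044), and the elongation factor EEF2 rose as well (log2 difference 0.65, SE 0.18, limma adjusted p = 0.0229). The locus LOC112268284 passed the test (limma adjusted p = 0.0434) although its libraries overlapped, with 3988, 4074 and 2022 TPM in WT cells, against 708, 292 and 2932 TPM in empty vector cells. TMSB10 was not called without any 1 library other than empty vector replicate 3 or after median-ratio scaling, and EEF2 and LOC112268284 were not called without any 1 of WT replicates 1 and 2 and empty vector replicates 1 and 2 or after quantile normalization.

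PAX6, SCIN and LIN28B led the largest rises. The rule that picked the 15 largest rises and the 15 largest falls took only genes whose groups did not overlap. Separation of their libraries was thus fixed by that choice. A lens, pancreas and brain transcription factor, an actin-severing protein, an RNA-binding repressor of let-7 microRNAs and a set of neuronal and cyclic AMP pathway genes were among them. PAX6, the transcription factor (chr11:31784779-31818062, minus strand), had 50.3, 44.5 and 43.5 TPM in the WT libraries, against 0.510, 0.467 and 0.766 TPM in the empty vector libraries (log2 difference 4.90, SE 0.14, limma adjusted p = 1.37e-08). SCIN, scinderin, had 371, 328 and 299 TPM in the WT libraries, against 11.2, 9.12 and 13.1 TPM in the empty vector libraries (log2 difference 4.79, SE 0.14, limma adjusted p = 1.37e-08). LIN28B, the let-7 repressor, had 30, 29.1 and 33.7 TPM in the WT libraries, against 0.326, 0.249 and 0.420 TPM in the empty vector libraries (log2 difference 4.58, SE 0.14, limma adjusted p = 1.42e-08). PAX6 and LIN28B were under 1 TPM in every empty vector library. SCIN lies at chr7:12570577-12660179, plus strand, and LIN28B at chr6:104936616-105083332, plus strand.

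Several of the rises act at membranes and in secretion. RAB27B, a small GTPase that docks secretory vesicles, had 44.8, 45.8 and 47.3 TPM in WT cells, against 1.83, 1.69 and 2.22 TPM in empty vector cells (log2 difference 4.01, SE 0.13, limma adjusted p = 1.9e-08). CLDN1, a tight junction protein, had 28.3, 26 and 25.3 TPM in WT cells, against 0.908, 0.721 and 0.668 TPM in empty vector cells (log2 difference 3.96, SE 0.14, limma adjusted p = 2.78e-08). BVES and POPDC3, members of the Popeye domain family of cyclic AMP-binding membrane proteins, rose together and sit side by side with LIN28B on chromosome 6. BVES averaged 48.4 ± 3.74 TPM in WT cells and 2.73 ± 0.174 TPM in empty vector cells (log2 difference 3.72, limma adjusted p = 2.5e-08) and POPDC3 averaged 30.9 ± 3.42 TPM in WT cells and 2.18 ± 0.318 TPM in empty vector cells (log2 difference 3.33, limma adjusted p = 1.5e-07). PDE4D, a phosphodiesterase that degrades cyclic AMP, averaged 23.4 ± 0.774 TPM in WT cells and 2.13 ± 0.635 TPM in empty vector cells (log2 difference 2.98, limma adjusted p = 5.73e-07).

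The rest of the 15 largest rises included receptors, ligands, a lipid kinase subunit and neuronal genes. WNT7B, a Wnt ligand, had 92.6, 69.1 and 68.5 TPM in WT cells, against 4.81, 4.22 and 6.16 TPM in empty vector cells (log2 difference 3.68, SE 0.16, limma adjusted p = 1.5e-07). PIK3CG, the catalytic subunit of phosphoinositide 3-kinase gamma, had 19.4, 16.5 and 17.9 TPM in WT cells, against 0.573, 0.780 and 0.903 TPM in empty vector cells (log2 difference 3.44, SE 0.15, limma adjusted p = 1.5e-07). CNR1, the cannabinoid receptor of the brain, had 20.9, 20.1 and 21.3 TPM in WT cells, against 0.939, 1.05 and 1.21 TPM in empty vector cells (log2 difference 3.40, SE 0.13, limma adjusted p = 1.04e-07). As the rule required, every WT library lay above every empty vector library in each of these. AGTR1, the angiotensin II receptor, averaged 75 ± 9.15 TPM in WT cells and 7.37 ± 1.40 TPM in empty vector cells (log2 difference 3.19, limma adjusted p = 1.81e-07). DLG2, a synaptic scaffold, averaged 81.9 ± 4.03 TPM in WT cells and 7.19 ± 1.41 TPM in empty vector cells (log2 difference 3.35, limma adjusted p = 1.15e-07), and CNTN1, a neuronal adhesion protein, averaged 25.3 ± 0.819 TPM in WT cells and 2.05 ± 0.539 TPM in empty vector cells (log2 difference 3.12, limma adjusted p = 3.17e-07). BDNF, a neurotrophin, averaged 21.3 ± 1.42 TPM in WT cells and 1.72 ± 0.0478 TPM in empty vector cells (log2 difference 3.04, limma adjusted p = 1.5e-07). The rule that picked these 15 had 2016 rises to choose from.

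**Figure D2:**
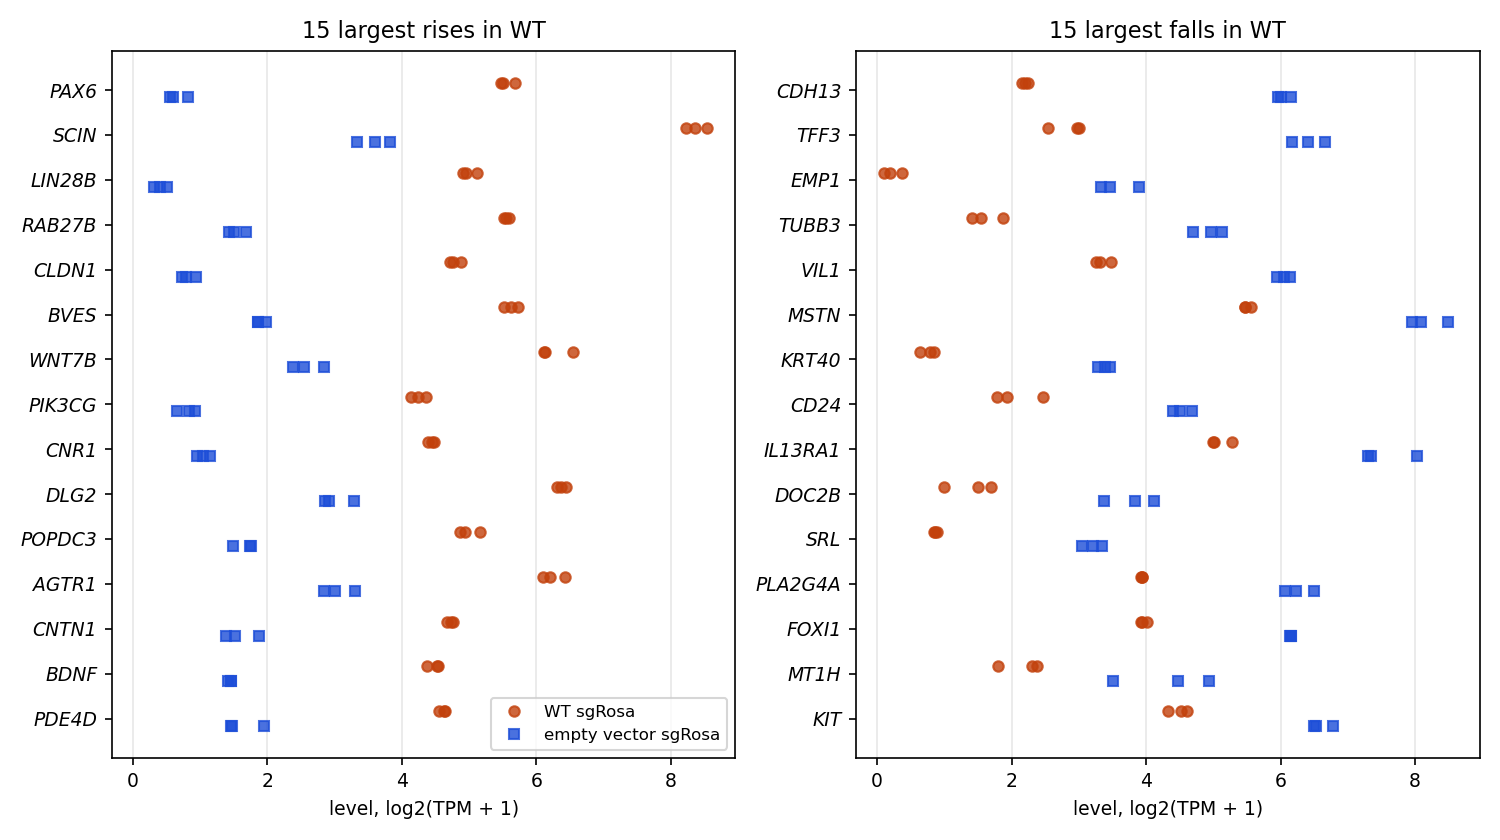
Level as log2(TPM + 1) (x axis) of the 15 largest rises and the 15 largest falls, 1 row per gene, with 1 point per library of the WT and the empty vector groups. The genes were picked for groups without overlap. WT points therefore lie right of the empty vector points in every row of the rises and left of them in the falls. MT1H has the widest empty vector group, between 10.4 and 29.6 TPM.

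The largest falls took in secreted and surface proteins of epithelium, tuft cell genes and a growth factor receptor. CDH13, a cadherin anchored without a cytoplasmic tail (chr16:82626803-83800640, plus strand), had 3.45, 3.76 and 3.60 TPM in the WT libraries, against 63.3, 61.6 and 70.2 TPM in the empty vector libraries (log2 difference -3.84, SE 0.12, limma adjusted p = 1.42e-08). TFF3, a trefoil peptide of mucous epithelium (chr21:42311667-42315651, minus strand), had 4.83, 7.05 and 6.83 TPM in the WT libraries, against 84, 101 and 70.8 TPM in the empty vector libraries (log2 difference -3.57, SE 0.16, limma adjusted p = 1.81e-07). EMP1, an epithelial membrane protein, had 0.0771, 0.147 and 0.298 TPM in the WT libraries, against 9.07, 10 and 13.9 TPM in the empty vector libraries (log2 difference -3.34, SE 0.18, limma adjusted p = 5.71e-07). EMP1 was under 1 TPM in every WT library. TUBB3, a beta-tubulin typical of neurons, averaged 2.08 ± 0.529 TPM in WT cells and 29.6 ± 4.49 TPM in empty vector cells (log2 difference -3.31, limma adjusted p = 4.07e-07). MSTN, myostatin, had 43.1, 43.4 and 46.3 TPM in WT cells, against 247, 272 and 358 TPM in empty vector cells (log2 difference -2.68, SE 0.13, limma adjusted p = 3.35e-07). It was among the more abundant of the genes that fell, at 247 TPM or more in each empty vector library.

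KIT, a receptor tyrosine kinase found on tuft cells, had 22, 19 and 23.3 TPM in WT cells, against 91.1, 89.5 and 109 TPM in empty vector cells (log2 difference -2.12, SE 0.12, limma adjusted p = 8.17e-07). IL13RA1, a subunit of the IL-13 receptor, had 37.9, 30.9 and 31.1 TPM in WT cells, against 161, 156 and 260.4 TPM in empty vector cells (log2 difference -2.46, SE 0.18, limma adjusted p = 5.8e-06). FOXI1, the transcription factor of ionocytes, had 15.2, 14.4 and 14.1 TPM in WT cells, against 70.3, 69.2 and 70.4 TPM in empty vector cells (log2 difference -2.19, SE 0.10, limma adjusted p = 1.81e-07). VIL1, the microvillus protein villin, had 8.54, 8.97 and 10.1 TPM in WT cells, against 65, 60.9 and 69.6 TPM in empty vector cells (log2 difference -2.70, SE 0.12, limma adjusted p = 1.5e-07). All 4 are known from tuft cells or ionocytes. PLA2G4A, which frees arachidonic acid for eicosanoid synthesis, had 14.1, 14.3 and 14.4 TPM in WT cells, against 65.7, 73.7 and 89.6 TPM in empty vector cells (log2 difference -2.33, SE 0.13, limma adjusted p = 5.83e-07). CD24, a glycoprotein held by a lipid anchor, averaged 3.25 ± 1.11 TPM in WT cells and 22.1 ± 2.40 TPM in empty vector cells (log2 difference -2.47, limma adjusted p = 6.76e-06). The hair keratin KRT40 averaged 0.691 ± 0.124 TPM in WT cells and 9.40 ± 0.665 TPM in empty vector cells (log2 difference -2.62, limma adjusted p = 6.85e-07), the calcium sensor DOC2B 1.68 ± 0.629 TPM in WT cells and 13 ± 3.49 TPM in empty vector cells (log2 difference -2.38, limma adjusted p = 3.72e-05) and SRL, sarcalumenin, 0.821 ± 0.0373 TPM in WT cells and 8.22 ± 0.930 TPM in empty vector cells (log2 difference -2.33, limma adjusted p = 1.8e-06). MT1H, a metallothionein, closed the list (log2 difference -2.14, SE 0.31, limma adjusted p = 0.000692). There were 1219 falls to choose from.

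Tuft cell genes did not move as 1 block. Of 45 tested tuft markers, 18 rose, 14 fell and 13 did not pass the test, with a median log2 difference of 0.24 against 0.08 over all genes. The list included POU2F3 itself, and 8 of its 54 genes in the table stayed under 1 TPM in all 6 libraries, among them ALOX5AP at 0. The summed level ran between 10432 and 10932 TPM in WT libraries and between 8947 and 10498 TPM in empty vector libraries, so the ranges overlapped. With a spread taken from all 18 libraries, 10 markers rose and 11 fell. The 18 include L191A sgRosa replicate 1 and WT sgPOU2F3 replicate 1, as do later counts with all 18 libraries. Without these libraries, a spread from 16 gave 18 rises and 14 falls. Counts for this and the later lists stand beside 19.2% higher and 9.93% lower over all genes tested.

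Most tested genes of the taste cascade rose. TRPM5, the calcium-gated channel, averaged 399 ± 33.1 TPM in WT cells and 273 ± 51.3 TPM in empty vector cells (log2 difference 0.56, SE 0.14, limma adjusted p = 0.0122), and was not called without empty vector replicate 1. PLCB2, the phospholipase, averaged 776 ± 71 TPM in WT cells and 377 ± 69 TPM in empty vector cells (log2 difference 1.05, SE 0.14, limma adjusted p = 0.00043), and GNAT3, the alpha subunit of gustducin (chosen after its values were seen), averaged 659 ± 64.3 TPM in WT cells and 262 ± 76.7 TPM in empty vector cells (log2 difference 1.36, SE 0.17, limma adjusted p = 0.000358). Its partner subunit went the other way. GNG13, the gamma subunit, averaged 137 ± 27.6 TPM in WT cells and 318 ± 46.6 TPM in empty vector cells (log2 difference -1.22, SE 0.15, limma adjusted p = 0.000338). RGS21, a regulator of G protein signalling of taste cells, had 151, 132 and 160 TPM in WT cells, against 27.7, 30.7 and 41.9 TPM in empty vector cells (log2 difference 2.13, SE 0.15, limma adjusted p = 4.31e-06). RGS13, of the same family and the most abundant of these genes in TPM, averaged 1826 ± 148 TPM in WT cells and 1184 ± 138 TPM in empty vector cells (log2 difference 0.63, SE 0.13, limma adjusted p = 0.00538). CALHM1 and CALHM3, which together form the channel that releases ATP from taste cells, rose in parallel. CALHM1 averaged 21.3 ± 2.79 TPM in WT cells and 3.78 ± 1.34 TPM in empty vector cells (log2 difference 2.25, limma adjusted p = 1.92e-05) and CALHM3 10.2 ± 0.421 TPM in WT cells and 2.54 ± 0.0295 TPM in empty vector cells (log2 difference 1.66, limma adjusted p = 1.02e-05). TRPM4, a second calcium-gated channel, averaged 18.7 ± 2.09 TPM in WT cells and 5.66 ± 0.649 TPM in empty vector cells (log2 difference 1.57, limma adjusted p = 2.72e-05). In the whole list of taste-type signalling genes, 11 of 17 tested rose and 1 fell, with a median log2 difference of 0.56, and 2 fell without empty vector replicate 3 or after either scaling. With all 18 libraries 6 rose and 2 fell. The summed level was 4892 to 5364 TPM in WT libraries and 3097 to 4144 TPM in empty vector libraries.

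Other tuft genes fell. AVIL, advillin, an actin-binding protein of the tuft, averaged 687 ± 27.6 TPM in WT cells and 879 ± 105 TPM in empty vector cells (log2 difference -0.35, SE 0.12, limma adjusted p = 0.0449), and was not called when any 1 library was left out or after quantile normalization. ASCL2, a transcription factor of tuft-like tumours, averaged 118 ± 7.83 TPM in WT cells and 162 ± 8.70 TPM in empty vector cells (log2 difference -0.46, SE 0.10, limma adjusted p = 0.00572). MYB, a transcription factor, had 37.5, 34.5 and 37.3 TPM in WT cells, against 132, 132 and 159.5 TPM in empty vector cells (log2 difference -1.92, SE 0.11, limma adjusted p = 7.74e-07). BIK, a pro-apoptotic BCL2 family member, was named from the list of apoptosis regulators and also fell. It had 28.7, 30.6 and 31.6 TPM in WT cells, against 96.6, 99.9 and 79.1 TPM in empty vector cells (log2 difference -1.56, SE 0.11, limma adjusted p = 5.8e-06). CHAT, which makes acetylcholine, rose instead and averaged 90.8 ± 7.29 TPM in WT cells and 37.3 ± 13.4 TPM in empty vector cells (log2 difference 1.31, SE 0.20, limma adjusted p = 0.000948), as did SPIB, an ETS factor, at 46.3 ± 3.18 TPM in WT cells and 22.5 ± 2.52 TPM in empty vector cells (log2 difference 1.01, SE 0.12, limma adjusted p = 0.000192). Among the markers used to define tuft cells, SH2D6, PTGS1 and GFI1B did not pass the test, with log2 differences of -0.16, -0.28 and -0.15, although SH2D6 was called lower after median-ratio scaling and PTGS1 after either scaling. The list of transcription factors and coactivators of tuft cells had 13 tested genes, with 4 rises and 4 falls, or 2 and 3 with all 18 libraries. A level limit of 5 TPM, which leaves fewer of them tested, gave 3 and 2. TCF7L2, an effector of Wnt signalling, had 11.7, 10.2 and 9.45 TPM in WT cells, against 2.46, 1.82 and 2.88 TPM in empty vector cells (log2 difference 1.77, SE 0.16, limma adjusted p = 3.1e-05). HMX2, a homeobox factor, had 0.728, 0.516 and 0.904 TPM in WT cells, against 2.98, 3.36 and 4.75 TPM in empty vector cells (log2 difference -1.44, SE 0.18, limma adjusted p = 0.000304), and its neighbour HMX3 also fell.

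Most tested bitter taste receptors rose. Of 18 tested TAS2R genes, 11 rose and none fell, with a median log2 difference of 0.83, and their summed level was 1176 to 1242 TPM in WT libraries and 705.8 to 989.4 TPM in empty vector libraries. TAS2R5 had 79.3, 66.2 and 69 TPM in the WT libraries, against 13, 12 and 16.8 TPM in the empty vector libraries (log2 difference 2.29, SE 0.14, limma adjusted p = 1.43e-06). TAS2R4 had 49.7, 45.1 and 47.6 TPM in the WT libraries, against 4.93, 3.33 and 9.55 TPM in the empty vector libraries (log2 difference 2.90, SE 0.26, limma adjusted p = 2.36e-05). TAS2R13 had 6.95, 7.63 and 8.30 TPM in the WT libraries, against 0.0925, 0.380 and 0.472 TPM in the empty vector libraries (log2 difference 2.72, SE 0.16, limma adjusted p = 1.43e-06). No library of either group crossed over in these receptors. TAS2R30 averaged 6.55 ± 0.484 TPM in WT cells and 1.59 ± 0.129 TPM in empty vector cells (log2 difference 1.54, limma adjusted p = 2.98e-05). With a level limit of 5 TPM, which leaves fewer receptors tested, 7 rose. With all 18 libraries 7 rose as well, and 1 receptor fell after median-ratio scaling and 2 after quantile normalization. The receptors of chromosome 12 are near-copies of each other, so the division of reads among them is uncertain.

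**Figure D3:**
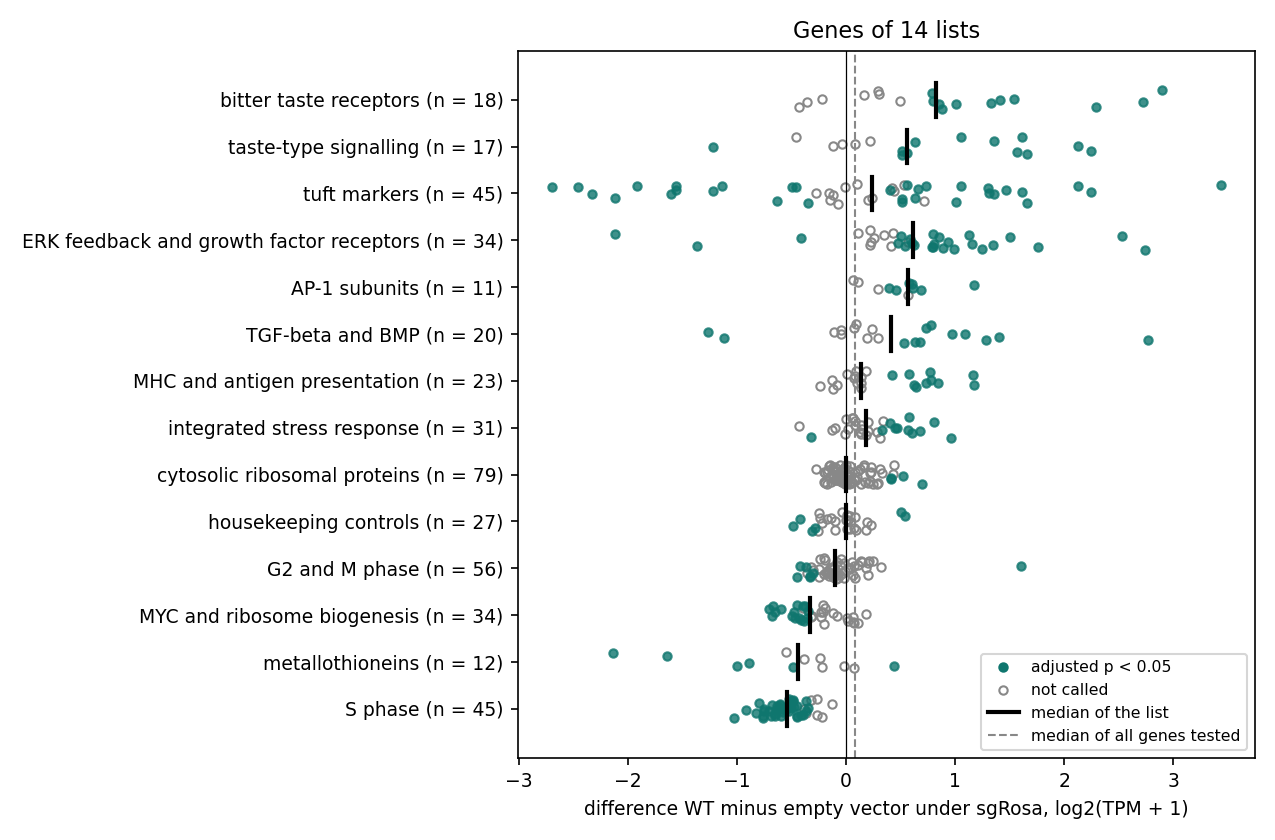
Log2(TPM + 1) differences, WT minus empty vector, of the tested members of gene lists, with filled points for called genes, open points for the others and a bar at the median of each list. Every S phase gene lies left of 0, the bitter taste receptors lie mostly right of it, and tuft markers spread to both sides.

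The octamer letters ATGCAAAT, searched on both strands in the 250 bases before to 50 bases after each RefSeq gene start (GRCh38.p14), stood in 492 of 27305 promoter windows (1.8%) and in 162 of the 10786 windows of genes tested (1.5%). They stood in 45 of 1997 windows of genes that rose (2.25%) and in 18 of 1095 of genes that fell (1.64%). For genes that rose by at least 2-fold the count was 11 of 365 (3.01%), and for those that fell by at least 2-fold it was 5 of 72 (6.94%). None of the 15 largest rises (13 with a window) or the 15 largest falls (10 with a window) had these letters. The 250 bases before the start are shown for 3 genes described above that hold them, chosen after their values were seen: TAS2R13 (chr12:10909563-10909812, minus strand) and TAS2R5 (chr7:141789967-141790216, plus strand), which rose, and HMX2 (chr10:123147886-123148135, plus strand), which fell. The octamer is in capitals and begins 57, 49 and 65 bases before the start, and in TAS2R13 it reads as the reverse complement. A match of letters describes the window and says nothing of binding.
TAS2R13: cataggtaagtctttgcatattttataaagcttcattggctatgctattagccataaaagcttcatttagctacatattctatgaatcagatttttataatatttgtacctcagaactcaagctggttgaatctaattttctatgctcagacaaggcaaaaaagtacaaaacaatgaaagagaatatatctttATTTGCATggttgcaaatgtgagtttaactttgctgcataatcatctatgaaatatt
TAS2R5: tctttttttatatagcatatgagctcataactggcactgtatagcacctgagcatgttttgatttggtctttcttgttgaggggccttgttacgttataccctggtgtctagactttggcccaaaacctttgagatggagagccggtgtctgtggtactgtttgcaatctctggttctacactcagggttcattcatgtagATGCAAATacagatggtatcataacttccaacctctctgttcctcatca
HMX2: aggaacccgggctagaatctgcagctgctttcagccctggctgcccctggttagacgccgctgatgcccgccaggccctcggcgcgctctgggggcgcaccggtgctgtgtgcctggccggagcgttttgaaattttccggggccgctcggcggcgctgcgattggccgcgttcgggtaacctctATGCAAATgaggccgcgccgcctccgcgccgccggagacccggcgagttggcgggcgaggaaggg

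Most DNA replication genes fell. All 45 S phase genes of the list were tested, 38 fell and none rose, with a median log2 difference of -0.54. Their summed level was 2949 to 3348 TPM in WT libraries and 4342 to 4691 TPM in empty vector libraries. PCNA, the sliding clamp of DNA polymerase, had 239.8, 226 and 244 TPM in the WT libraries, against 530.4, 532 and 399 TPM in the empty vector libraries (log2 difference -1.03, SE 0.12, limma adjusted p = 0.000247). CDC6, which loads the replicative helicase, had 53.4, 47 and 44.3 TPM in the WT libraries, against 92.8, 101 and 82.1 TPM in the empty vector libraries (log2 difference -0.92, SE 0.11, limma adjusted p = 0.000304). DTL, a substrate adaptor of a ubiquitin ligase in S phase, had 26.7, 26.3 and 26 TPM in the WT libraries, against 45, 45.8 and 43.8 TPM in the empty vector libraries (log2 difference -0.75, SE 0.10, limma adjusted p = 0.000423). Replicates lay close together in DTL and wider apart in PCNA, where empty vector replicate 3 was lowest of its group, and no library crossed over. With a spread from all 18 libraries 17 of these genes fell, and with one from 16 libraries 41 did.

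Genes of mitosis moved little. Of 56 tested G2 and M phase genes, 6 fell and 1 rose, with a median log2 difference of -0.10. BUB1B, a spindle checkpoint kinase, averaged 66.6 ± 1 TPM in WT cells and 91.5 ± 5.51 TPM in empty vector cells (log2 difference -0.45, limma adjusted p = 0.00554), and NDC80, a kinetochore protein, 56.3 ± 4.35 TPM in WT cells and 75.3 ± 1.03 TPM in empty vector cells (log2 difference -0.42, limma adjusted p = 0.0104). HMGB2, a chromatin protein, averaged 454 ± 11.8 TPM in WT cells and 588 ± 21.1 TPM in empty vector cells (log2 difference -0.37, limma adjusted p = 0.016). The 1 that rose was GAS2L3, a cytoskeletal linker, with 109.5, 97.6 and 89.7 TPM in WT cells, against 27.9, 25 and 45.8 TPM in empty vector cells (log2 difference 1.60, SE 0.19, limma adjusted p = 0.000213). The count of falls was 18 after median-ratio scaling, 13 after quantile normalization, 3 without WT replicate 1 or empty vector replicate 2, 2 without WT replicate 2 or 3, and 1 without empty vector replicate 1. HMGB2 was not called without WT replicate 2 or 3 or empty vector replicate 1 or 2, nor NDC80 without empty vector replicate 1. Rises numbered 3 without empty vector replicate 3 and 4 after quantile normalization, and with all 18 libraries 1 gene fell and none rose.

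Among ribosome biogenesis genes the calls were all falls. Of 34 MYC-related and ribosome biogenesis genes, 16 fell and none rose, with a median log2 difference of -0.33 and summed levels of 4953 to 5096 TPM in WT libraries and 5942 to 6462 TPM in empty vector libraries. GNL3, nucleostemin, averaged 78.8 ± 3.86 TPM in WT cells and 126 ± 10.2 TPM in empty vector cells (log2 difference -0.67, SE 0.10, limma adjusted p = 0.000858). NOP56, a box C/D snoRNP protein, averaged 189 ± 7.31 TPM in WT cells and 313 ± 37.1 TPM in empty vector cells (log2 difference -0.71, SE 0.11, limma adjusted p = 0.00107). NOLC1 and LYAR, nucleolar proteins, fell as well (log2 difference -0.60 and log2 difference -0.68). The falls numbered 9 without WT replicate 2 and 7 without empty vector replicate 1, and 5 with all 18 libraries. Of 79 cytosolic ribosomal proteins, 4 rose, RPS28, RPL13 and RPL28 among them, and none fell. RPS28 averaged 2982 ± 108 TPM in WT cells and 1836 ± 39.9 TPM in empty vector cells (log2 difference 0.70, SE 0.12, limma adjusted p = 0.00211), and RPL13 and RPL28 were not called after median-ratio scaling or without either of WT replicates 2 and 3. RPL28 was also not called when any 1 empty vector library was left out, with the replicate block or with no variance trend. Without WT replicate 2 or 3 there was 1 rise among the ribosomal proteins, without empty vector replicate 1 there were 2, and with the pair of low-ribosomal libraries removed there were 20. Without empty vector replicate 3, 1 ribosomal protein gene fell. The rises numbered 1 after median-ratio scaling or with all 18 libraries, and 7 with 1 fall after quantile normalization. Reads of these genes can be split with their pseudogenes.

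Most tested genes rose in a list that counted ERK feedback genes and growth factor receptors together. Of 34 tested ERK feedback and growth factor receptor genes, 22 rose and 3 fell, with a median log2 difference of 0.61. EGR1, an immediate early transcription factor, had 79.6, 70.5 and 62.6 TPM in the WT libraries, against 11, 8.39 and 9.92 TPM in the empty vector libraries (log2 difference 2.74, SE 0.13, limma adjusted p = 3.17e-07). ETV4, an ETS factor induced by ERK, had 46.4, 34.9 and 37.7 TPM in the WT libraries, against 6.87, 5.57 and 5.66 TPM in the empty vector libraries (log2 difference 2.53, SE 0.14, limma adjusted p = 8.17e-07). ETV5, its relative, had 38.4, 32.2 and 29.5 TPM in the WT libraries, against 8.37, 8.16 and 11.1 TPM in the empty vector libraries (log2 difference 1.76, SE 0.15, limma adjusted p = 1.93e-05). Each of these was higher in every WT library than in any empty vector library. The feedback inhibitors, picked after their values were seen, were divided: the phosphatase DUSP6 averaged 7.79 ± 0.498 TPM in WT cells and 3 ± 0.0943 TPM in empty vector cells (log2 difference 1.13, limma adjusted p = 0.000213) and SPRY4 6.56 ± 0.166 TPM in WT cells and 2.18 ± 0.396 TPM in empty vector cells (log2 difference 1.25, limma adjusted p = 0.000198), while SPRY1 fell, at 5.73 ± 0.776 TPM in WT cells and 16.4 ± 0.921 TPM in empty vector cells (log2 difference -1.37, limma adjusted p = 6.04e-05). The other falls were KIT, described above, and IER3, which was not called without WT replicate 2 or 3 or empty vector replicate 1 or 2. With all 18 libraries 12 of the genes rose, and so did 12 with a level limit of 5 TPM, which leaves fewer of them tested.

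Most tested AP-1 subunits rose as well. Of 11 tested, 7 rose and none fell, with a median log2 difference of 0.57. BATF3 averaged 14.7 ± 2.04 TPM in WT cells and 6.03 ± 1.57 TPM in empty vector cells (log2 difference 1.17, SE 0.19, limma adjusted p = 0.00126), FOSL2 18.7 ± 1.66 TPM in WT cells and 11.2 ± 1.34 TPM in empty vector cells (log2 difference 0.69, limma adjusted p = 0.00381) and JUNB 29 ± 2.36 TPM in WT cells and 18.8 ± 1.63 TPM in empty vector cells (log2 difference 0.60, limma adjusted p = 0.00447). These 3 are basic leucine zipper factors that pair to form AP-1, and MAFK is a small relative (log2 difference 0.61, limma adjusted p = 0.0126). Without WT replicate 1, 4 subunits rose, and with all 18 libraries 1 did. Of 18 YAP and TAZ targets, 5 rose and none fell, beside 19.2% and 9.93% of all genes, while 2 fell after quantile normalization and none was called with all 18 libraries. CRIM1, a transmembrane antagonist of BMPs, averaged 232 ± 20.7 TPM in WT cells and 101 ± 27.4 TPM in empty vector cells (log2 difference 1.22, SE 0.16, limma adjusted p = 0.000469), and CYR61, a matricellular protein, averaged 4.17 ± 0.673 TPM in WT cells and 2.30 ± 0.232 TPM in empty vector cells (log2 difference 0.64, SE 0.16, limma adjusted p = 0.0114). ARHGEF17 and AJUBA rose as well (log2 difference 0.67 and log2 difference 0.69). The YAP count was 2 without empty vector replicate 1 and 10 without empty vector replicate 3, and neither CYR61 nor AJUBA was called without empty vector replicate 1. CYR61 was also not called after quantile normalization.

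Genes of the TGF-beta and BMP pathways rose more than they fell, 10 against 2 of 20 tested, with a median log2 difference of 0.41, and 5 rose with all 18 libraries. LTBP1, which binds latent TGF-beta in the matrix, had 97.7, 84.1 and 90.9 TPM in WT cells, against 11.9, 11.1 and 14.4 TPM in empty vector cells (log2 difference 2.77, SE 0.12, limma adjusted p = 1.66e-07). The ligand TGFB1 averaged 59.4 ± 9.56 TPM in WT cells and 22.4 ± 7.18 TPM in empty vector cells (log2 difference 1.40, SE 0.20, limma adjusted p = 0.000671), and the ligand BMP2 averaged 106 ± 5.84 TPM in WT cells and 43.5 ± 6.83 TPM in empty vector cells (log2 difference 1.28, SE 0.12, limma adjusted p = 3.66e-05). ID2, a target of BMP signalling that blocks basic helix-loop-helix factors, fell (53.8 ± 1.98 TPM in WT cells and 132 ± 11.9 TPM in empty vector cells; log2 difference -1.27, SE 0.10, limma adjusted p = 1.09e-05). Ligands and a latency protein thus rose while this target fell. Of 17 Wnt targets, 5 rose and 2 fell, and the 5 were 8 without empty vector replicate 3. After either scaling 4 Wnt targets fell, and with all 18 libraries 3 rose and none fell. The receptor TNFRSF19 averaged 7.82 ± 1.11 TPM in WT cells and 0.957 ± 0.193 TPM in empty vector cells (log2 difference 2.17, SE 0.16, limma adjusted p = 5.6e-06) and EPHB2 65.4 ± 5.33 TPM in WT cells and 21.1 ± 3.45 TPM in empty vector cells (log2 difference 1.60, SE 0.13, limma adjusted p = 1.39e-05), whereas EPHB3, a relative of EPHB2, fell (36.4 ± 2.69 TPM in WT cells and 67.4 ± 14.6 TPM in empty vector cells; log2 difference -0.85, SE 0.15, limma adjusted p = 0.00195). BAMBI, a decoy receptor of the TGF-beta family, rose (18.2 ± 3.81 TPM in WT cells and 7.90 ± 0.277 TPM in empty vector cells; log2 difference 1.09, SE 0.15, limma adjusted p = 0.000692). Of 24 Notch pathway genes, 8 rose and 4 fell, and 5 rose without WT replicate 1, WT replicate 3, empty vector replicate 1 or empty vector replicate 2. With all 18 libraries 2 rose and 1 fell, and 6 fell after median-ratio scaling. HEY1, a Notch-induced repressor, averaged 25.5 ± 0.722 TPM in WT cells and 8.53 ± 0.573 TPM in empty vector cells (log2 difference 1.48, SE 0.12, limma adjusted p = 1.1e-05). HES4 rose (log2 difference 0.75), while HES2 and the glycosyltransferase LFNG fell (log2 difference -1.09 and log2 difference -1.26).

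Of 23 tested antigen presentation genes, those of the MHC and its loading machinery, 10 rose and none fell. The median log2 difference was 0.14 against 0.08 over all genes, with summed levels of 1919 to 1931 TPM in WT libraries and 1673 to 1760 TPM in empty vector libraries. HLA-C had 81.1, 78.2 and 84 TPM in the WT libraries, against 38.1, 37.3 and 31.8 TPM in the empty vector libraries (log2 difference 1.16, SE 0.11, limma adjusted p = 2.74e-05). TAP2, a subunit of the peptide transporter, had 46.5, 45 and 49.3 TPM in the WT libraries, against 31.9, 28.7 and 29.7 TPM in the empty vector libraries (log2 difference 0.62, SE 0.10, limma adjusted p = 0.00153). HLA-DMA, a class II loading factor, averaged 19.4 ± 1.72 TPM in WT cells and 10.9 ± 0.694 TPM in empty vector cells (log2 difference 0.77, SE 0.13, limma adjusted p = 0.00148), and HLA-B 3.35 ± 0.833 TPM in WT cells and 0.914 ± 0.232 TPM in empty vector cells (log2 difference 1.17, SE 0.18, limma adjusted p = 0.00125). The classical HLA genes are similar in sequence and vary between people, so the division of reads among them is uncertain. Without empty vector replicate 3 or after either scaling, 1 gene of the list fell, and with all 18 libraries 5 rose. In the NF-kB list 4 of 22 rose and 3 fell, a share of rises near the 19.2% of all genes, and with all 18 libraries 1 rose and none fell. After quantile normalization 5 fell. The rises included the noncanonical subunits: NFKB2 averaged 15.1 ± 1.38 TPM in WT cells and 6.43 ± 0.705 TPM in empty vector cells (log2 difference 1.12, SE 0.14, limma adjusted p = 0.000268) and RELB 16.7 ± 2.12 TPM in WT cells and 9 ± 1.09 TPM in empty vector cells (log2 difference 0.82, SE 0.14, limma adjusted p = 0.00223). BIRC3, an inhibitor of apoptosis induced by NF-kB, rose (log2 difference 0.56), though not past the threshold without empty vector replicate 1, and TNFAIP2 fell (log2 difference -0.62). The rises were 8 without empty vector replicate 3, and 1 gene fell under the replicate block, without WT replicate 2 or 3 or without empty vector replicate 1 or 2.

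Interferon-stimulated genes were divided, with 5 rises and 4 falls among 23 tested. ISG15, a ubiquitin-like modifier, had 12.7, 17.6 and 20.4 TPM in WT cells, against 52.3, 55.2 and 44.9 TPM in empty vector cells (log2 difference -1.55, SE 0.16, limma adjusted p = 8.22e-05). SAMD9, an antiviral factor, had 8.17, 7.78 and 9.31 TPM in WT cells, against 23.2, 22.3 and 30.9 TPM in empty vector cells (log2 difference -1.48, SE 0.15, limma adjusted p = 6.39e-05). IFITM2, which blocks virus entry, averaged 24.5 ± 2.15 TPM in WT cells and 46.9 ± 4.93 TPM in empty vector cells (log2 difference -0.91, SE 0.12, limma adjusted p = 0.000417). Against these falls, USP18, which removes ISG15 from proteins, averaged 54.4 ± 1.77 TPM in WT cells and 38.7 ± 0.695 TPM in empty vector cells (log2 difference 0.48, SE 0.10, limma adjusted p = 0.00417). The rises were 2 or 3 when any library except empty vector replicate 3 was left out and 9 without that library. After quantile normalization 3 rose and 9 fell, and with all 18 libraries none rose and 3 fell.

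Among apoptosis regulators 7 of 26 tested fell and 4 rose. Beside BIK, BMF averaged 18 ± 0.437 TPM in WT cells and 31.1 ± 7.06 TPM in empty vector cells (log2 difference -0.73, SE 0.15, limma adjusted p = 0.005) and BID 25.8 ± 0.182 TPM in WT cells and 35.6 ± 1.83 TPM in empty vector cells (log2 difference -0.45, SE 0.10, limma adjusted p = 0.00875). All 3 promote cell death through the BCL2 family, and BCL2, which opposes it, fell as well (165 ± 12.5 TPM in WT cells and 260 ± 59.2 TPM in empty vector cells; log2 difference -0.63, SE 0.15, limma adjusted p = 0.00943). The rises were between 0 and 2 when any library except empty vector replicate 3 was left out and 8 without that library, with no rise and 2 falls with all 18 libraries, and BID was not called without empty vector replicate 1. Of 28 p53 targets, 7 rose and 2 fell, or 1 without WT replicate 3, where TRIAP1 was not called. CDKN1A, the cell cycle inhibitor p21, averaged 8.87 ± 0.930 TPM in WT cells and 4.39 ± 0.610 TPM in empty vector cells (log2 difference 0.88, SE 0.15, limma adjusted p = 0.00187), and FDXR, ferredoxin reductase, rose (log2 difference 0.76). TP53I3, a quinone oxidoreductase, averaged 39.2 ± 2.10 TPM in WT cells and 59 ± 0.623 TPM in empty vector cells (log2 difference -0.58, SE 0.10, limma adjusted p = 0.00175), and TRIAP1, a p53-induced survival protein, fell as well (log2 difference -0.45). After quantile normalization 6 p53 targets rose and 6 fell, after median-ratio scaling 7 and 4, and with all 18 libraries 2 and 1. The p53 rises numbered 3 without WT replicate 1 or 3, 2 without empty vector replicate 1, 4 without empty vector replicate 2 and 11 without empty vector replicate 3.

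The integrated stress response list had 31 tested genes, with 10 rises, 1 fall (WARS) and a median log2 difference of 0.18, beside 19.2% and 9.93% of all genes. With all 18 libraries 2 rose and none fell. Without WT replicate 3 there were 6 rises, and no gene fell when any library other than empty vector replicate 3 was left out. ALDH1L2, a mitochondrial folate enzyme, averaged 5.40 ± 0.155 TPM in WT cells and 2.31 ± 0.350 TPM in empty vector cells (log2 difference 0.96, SE 0.14, limma adjusted p = 0.000972). TRIB3, a pseudokinase induced by ATF4, had 83.5, 68.2 and 56.1 TPM in WT cells, against 38.5, 35.5 and 41.7 TPM in empty vector cells (log2 difference 0.81, SE 0.14, limma adjusted p = 0.00221), and CHAC1, a glutathione-degrading enzyme, averaged 21.2 ± 1.61 TPM in WT cells and 13 ± 2.33 TPM in empty vector cells (log2 difference 0.68, SE 0.15, limma adjusted p = 0.00639). Of 24 cholesterol synthesis genes, 6 rose and 1 fell. Without WT replicate 3 or without empty vector replicate 1, 3 rose, and the falls were 0 without empty vector replicate 1, 3 without empty vector replicate 3 and 2 after either scaling. With the replicate block 4 rose, and with all 18 libraries 1 did. SREBF2, the transcription factor of the pathway, averaged 124 ± 11.9 TPM in WT cells and 73.2 ± 16.1 TPM in empty vector cells (log2 difference 0.77, SE 0.15, limma adjusted p = 0.00339). ACAT2, which supplies acetoacetyl-CoA, fell (log2 difference -0.43, SE 0.10, limma adjusted p = 0.00883) except without empty vector replicate 1. In the hypoxia and glycolysis list 4 of 31 rose and 3 fell. P4HA2, a collagen prolyl hydroxylase, rose (log2 difference 0.56, SE 0.10, limma adjusted p = 0.00245), and NDRG1 and EGLN3, both induced by hypoxia, fell (log2 difference -0.49 and log2 difference -0.44). With all 18 libraries 1 of that list fell and none rose. Without empty vector replicate 3, 9 of that list fell, and 2 rose without WT replicate 1 or 3 or without empty vector replicate 1 or 2.

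Metallothioneins are small zinc-binding and copper-binding proteins. Of 12 genes in the list, 5 fell (MT1B, MT1E, MT1F, MT1G and MT1H) and 1 rose, the zinc exporter SLC30A1, with a median log2 difference of -0.44. MT1G had 65.7, 69.4 and 73.9 TPM in WT cells, against 175, 172 and 92.5 TPM in empty vector cells (log2 difference -1.0, SE 0.20, limma adjusted p = 0.00496). MT1E had 79.6, 82.3 and 78.6 TPM in WT cells, against 180.2, 187 and 98.9 TPM in empty vector cells (log2 difference -0.89, SE 0.20, limma adjusted p = 0.0083). In both genes empty vector replicate 3 was far below the other empty vector libraries and still above every WT library. Without that library 9 of the genes fell, with all 18 libraries 4 fell and none rose, and neither SLC30A1 nor MT1F was called without any 1 of the other libraries. These genes are near-copies of each other, so reads may be split among them.

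Epithelial genes divided, with 9 rises and 4 falls among 31 tested. KRT8, a simple epithelial keratin, had 436, 431 and 473 TPM in WT cells, against 288, 279.5 and 279.9 TPM in empty vector cells (log2 difference 0.66, SE 0.09, limma adjusted p = 0.000705). ELF3, an ETS factor of epithelium, had 50.4, 61.7 and 59.2 TPM in WT cells, against 133, 129 and 127 TPM in empty vector cells (log2 difference -1.17, SE 0.10, limma adjusted p = 2.39e-05). CLDN4, a claudin, averaged 1.24 ± 0.366 TPM in WT cells and 5.41 ± 0.944 TPM in empty vector cells (log2 difference -1.52, SE 0.18, limma adjusted p = 0.000174), so CLDN4 fell where CLDN1 rose. AP1M2, an adaptor of basolateral sorting, fell (log2 difference -0.85, SE 0.11, limma adjusted p = 0.000432). The rises were 4 without WT replicate 3 or empty vector replicate 1, 5 without empty vector replicate 2, 14 without empty vector replicate 3 and 3 with all 18 libraries. Among 14 claudins and tight junction genes, 3 rose (CLDN1, CLDN15 and OCLN) and CLDN4 fell. The rises there were 5 after quantile normalization, 1 with all 18 libraries, 1 without WT replicate 1 or 2 or without empty vector replicate 1 or 2, and 6 without empty vector replicate 3, with neither CLDN15 nor OCLN called without any 1 of the other libraries.

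Markers of other cell types moved in part. Of 15 mesenchymal genes tested, 8 rose and 1 fell, with summed levels of 224.7 to 256.3 TPM in WT libraries and 188.7 to 255 TPM in empty vector libraries. DCN, decorin, averaged 8.78 ± 2.26 TPM in WT cells and 2.42 ± 0.161 TPM in empty vector cells (log2 difference 1.49, SE 0.17, limma adjusted p = 0.000192), and VIM, vimentin, 19.3 ± 3.94 TPM in WT cells and 8.21 ± 1.01 TPM in empty vector cells (log2 difference 1.13, SE 0.17, limma adjusted p = 0.000832). The collagen gene COL1A2 and the smooth muscle actin ACTA2 rose at low levels (log2 difference 0.91 and log2 difference 0.91), while TWIST2 and COL5A1 were at 0 in all 6 libraries. The genes that rose were 5 without WT replicate 1 or 3 or empty vector replicate 1 or 2, and none fell without these or without WT replicate 2. After either scaling 3 fell, and with all 18 libraries 4 rose and none fell. Of 11 neuroendocrine genes tested, 4 rose and 1 fell, and summed levels were 1132 to 1153 TPM in WT libraries and 1054 to 1164 TPM in empty vector libraries. SYT1, a calcium sensor of vesicle release, averaged 42.7 ± 4.33 TPM in WT cells and 23.7 ± 3.47 TPM in empty vector cells (log2 difference 0.83, SE 0.13, limma adjusted p = 0.00126), and SNAP25, of the same machinery, fell (0.882 ± 0.245 TPM in WT cells and 3.71 ± 0.840 TPM in empty vector cells; log2 difference -1.32, SE 0.18, limma adjusted p = 0.000565). Without empty vector replicate 3 or after either scaling, 2 genes of that list fell, and with all 18 libraries 1 rose. The defining gene NEUROD1 stayed under 1 TPM in every library, as did CHGA and CHGB.

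Basal markers included NGFR, a neurotrophin receptor, at 3.29 ± 0.296 TPM in WT cells and 0.682 ± 0.265 TPM in empty vector cells (log2 difference 1.36, SE 0.16, limma adjusted p = 0.000247). Of 10 tested 4 rose, and the count was 2 without WT replicate 1 or empty vector replicate 1 or 2 and 7 without empty vector replicate 3, while 1 fell without empty vector replicate 1, and KRT5 and KRT6B were at 0. The ionocyte list summed to 604.4 to 636 TPM in WT libraries and 774.8 to 913.4 TPM in empty vector libraries. In it FOXI1 and HEPACAM2 fell, PDE1C rose, and CFTR was at 0 throughout. The secretory list summed to 7.571 to 9.127 TPM in WT libraries and 74.47 to 103.2 TPM in empty vector libraries. TFF3 made up nearly all of it in empty vector libraries and most of it in WT libraries. SCGB1A1, SCGB3A1, MUC2, TFF2 and BPIFA1 were at 0. The ciliated list summed to 285.7 to 343.4 TPM in WT libraries and 231.5 to 284.1 TPM in empty vector libraries. TPPP3 and RSPH1 fell and TEKT2 rose among its 10 tested genes, with 2 rises without WT replicate 2 or empty vector replicate 2 and 3 without empty vector replicate 3, and DNAI2 and TEKT1 were at 0. TEKT2 was not called after quantile normalization. The alveolar list summed to 87.74 to 121.6 TPM in WT libraries and 49.67 to 70.46 TPM in empty vector libraries, with rises of ABCA3, AGER and CAV1 among 7 tested, 5 rises without empty vector replicate 3 or after median-ratio scaling, and SFTPC at 0. With all 18 libraries 1 basal gene rose, no alveolar gene did, and 1 ionocyte gene rose and 1 fell. AGER was not called without any 1 library other than empty vector replicate 3.

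Blood and vessel markers were low in both groups. The lymphoid and myeloid list summed to 76.97 to 83.25 TPM in WT libraries and 65.65 to 69.21 TPM in empty vector libraries, 17 of its 25 genes stayed under 1 TPM, and CD3E, CD3D, CD2, MS4A1 and TYROBP were at 0. CD14 rose (9.37 ± 1.54 TPM in WT cells and 2.18 ± 0.223 TPM in empty vector cells; log2 difference 1.69, SE 0.16, limma adjusted p = 3.17e-05), and CD79B rose by less (log2 difference 0.36, SE 0.12, limma adjusted p = 0.047), though not past the threshold when any 1 library was left out or after either scaling. The endothelial and erythroid list summed to 7.476 to 8.15 TPM in WT libraries and 2.924 to 3.379 TPM in empty vector libraries, with ITGA2B and EPOR the 2 tested and both higher, and the globins HBA1, HBA2, HBB, HBG1 and HBG2 at 0. The list for the embryonic kidney line in which lentivirus is made summed to 438.2 to 474.5 TPM in WT libraries and 325.3 to 411.8 TPM in empty vector libraries. Its developmental factor EYA1 averaged 151 ± 7.41 TPM in WT cells and 68.2 ± 10.5 TPM in empty vector cells (log2 difference 1.15, SE 0.12, limma adjusted p = 7e-05) and SALL1 rose (log2 difference 1.10, SE 0.14, limma adjusted p = 0.000389), HOXC10 fell (log2 difference -0.52, SE 0.10, limma adjusted p = 0.00352), and LHX1 and NEFL were at 0. With all 18 libraries 1 gene of that list rose and none fell. The part of these cell types in the results was not tested.

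Eicosanoid genes included PTGS2, the inducible cyclooxygenase, with 49, 32.6 and 26.6 TPM in WT cells, against 61.1, 59.8 and 81.7 TPM in empty vector cells (log2 difference -0.92, SE 0.20, limma adjusted p = 0.007). It and PLA2G4A fell, and none rose, among 13 tested, although 1 rose without WT replicate 1, 2 after median-ratio scaling and 2 rose without empty vector replicate 3. Of 21 replication-dependent histones 3 rose, 5 without empty vector replicate 3, and 1 fell without WT replicate 1, empty vector replicate 2 or empty vector replicate 3. After either scaling 2 fell, and with all 18 libraries 1 rose. These messages largely lack the poly(A) tail and have many copies. Of 27 housekeeping genes 2 rose (POLR2A and REEP5) and 4 fell (PPIA, TBP, SNRPD3 and VPS29). TBP, the TATA-binding protein, averaged 31.3 ± 0.899 TPM in WT cells and 39.1 ± 1.49 TPM in empty vector cells (log2 difference -0.31, SE 0.10, limma adjusted p = 0.0389). POLR2A, PPIA and TBP were not called without any 1 library other than empty vector replicate 3. The replicate block left 1 fall, and all 18 libraries 1 rise and 1 fall. The falls were 2 without WT replicate 1 and 1 when WT replicate 2 or 3 or empty vector replicate 1 or 2 was left out, and 1 gene rose in each of these.

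Genes that lie next to each other sometimes moved together, and the runs named here were picked after their values were seen. Neighbours here are genes adjacent on a chromosome among those tested, at any distance. Among genes changed by at least 2-fold, 42 neighbouring pairs and 9 runs of 3 genes rose, and 7 pairs and 1 run of 4 genes fell. They spanned from 4 kb (MT1G and MT1H) to 3861 kb (ROBO2 and ROBO1). Of all genes tested, 3.6% were higher and 0.752% lower by at least 2-fold. How many runs would arise with the genes in random order was not tested. LIN28B, BVES and POPDC3 formed a run over 243 kb at chr6:104936616-105179995. CALHM2, CALHM1 and CALHM3 formed a run over 32 kb at chr10:103446786-103479240, with log2 differences of 1.56, 2.25 and 1.66, and TAS2R3, TAS2R4 and TAS2R5 one over 27 kb at chr7:141764097-141791367, with 1.41, 2.90 and 2.29. The run that fell held ABCG1, TFF3, TMPRSS3 and RSPH1 at chr21:42199689-42496354, with log2 differences of -1.38, -3.57, -1.85 and -1.17. Also on chromosome 21, the neural factors OLIG2 and OLIG1 fell, by 1.62 each on the log2 scale. Of 119 tested genes on that chromosome 31 fell (26.1%) and 10 rose (8.4%), with a median log2 difference of -0.17. On chromosome 19, 246 of 915 rose (26.9%) and 56 fell (6.12%), with a median of 0.18.

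The same lines were also sequenced with sgPOU2F3, in libraries that share none with the 6 above. There 3983 genes (30%) were called between WT and empty vector, 1774 higher (13.3%) and 2209 lower (16.6%), after WT replicate 1 was left out because it stood apart. That library had 32.8% of TPM in ribosomal protein genes, against 26.4% and 25.3% in the other WT sgPOU2F3 libraries and 15.7% to 19.9% in the empty vector libraries. Of the 3868 genes called with sgRosa, 73.8% had the same sign with sgPOU2F3, 1408 (36.4%) were called with that sign, and 230 (5.95%) were called with the opposite one. Over the genes not called with sgRosa 55.6% had the same sign. Across the called genes, which are not independent replicates, the log2 differences with the 2 guides correlated with r = 0.59 and rho = 0.57. Genes with large differences held more often in count: of 478 higher by at least 2-fold, 302 (63.2%) were called higher with sgPOU2F3, and of 100 lower by at least 2-fold, 61 were called lower. The difference between guides itself passed the test for 2472 of all genes (18.6%) and for 1021 of the 3868 (26.4%). It passed more often for the large differences, for 179 of the 478 rises (37.4%) and 55 of the 100 falls. The median log2 difference was 1.28 with sgRosa and 0.89 with sgPOU2F3 for these rises. For these falls it was -1.47 and -0.68. Both sets were picked for their size with sgRosa. The sgPOU2F3 calls numbered 1215 without WT replicate 2, 1606 without WT replicate 3, 6427 without empty vector replicate 2 and 2162 without empty vector replicate 3, and the difference 1089 and 1606 without those WT libraries.

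**Figure D4:**
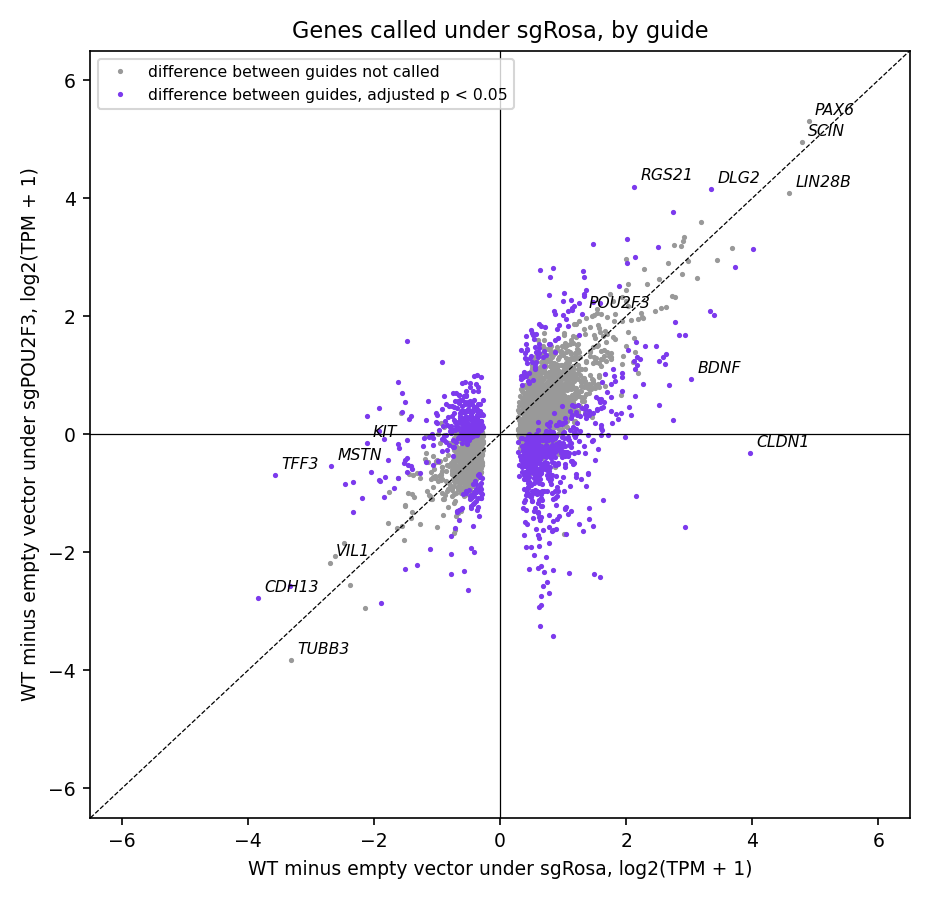
Log2(TPM + 1) difference, WT minus empty vector, with sgPOU2F3 (y axis) against the same difference with sgRosa (x axis), 1 point per gene called with sgRosa. PAX6 and SCIN lie near the diagonal, while CLDN1, at 3.96 with sgRosa, lies near 0 with sgPOU2F3.

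Some gene groups went one way with both guides and others did not. With sgPOU2F3, 36 S phase genes fell and none rose, with a median log2 difference of -0.62, and 14 bitter taste receptors rose and none fell, with a median of 1.98. Taste-type signalling genes rose in 9 cases and fell in none. The test of the difference between guides passed for 7 of 45 S phase genes, 7 of 18 bitter taste receptors and 7 of 17 taste-type signalling genes. Over all genes tested it passed for 18.6%. YAP and TAZ targets, with 5 rises and no fall under sgRosa, had 11 falls and no rise with sgPOU2F3, and the test of the difference passed for 12 of 18. AP-1 subunits had 5 falls and no rise with sgPOU2F3, and the difference passed for 8 of 11. Antigen presentation genes had 12 falls and 1 rise, and the difference passed for 15 of 23. ERK feedback and growth factor receptor genes had 7 rises and 9 falls with sgPOU2F3, with a median of -0.13. For them the difference passed for 19 of 34. NF-kB genes had 18 falls and no rise, and the difference passed for 17 of 22. Mesenchymal genes had 3 rises and 9 falls, and the difference passed for 8 of 15. Ribosome biogenesis genes fell in 31 of 34 cases with sgPOU2F3, and the difference passed for 21 of them. Ribosomal proteins rose in 55 of 79 cases with sgPOU2F3, and the difference passed for 25 of 79. There the WT libraries also had the larger share of TPM in ribosomal protein genes. The part of that share in these counts was not tested.

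The named genes can be followed over all 6 groups, where L191A sgRosa replicate 1 also stood apart, with 37.96% of TPM in ribosomal protein genes. Comparisons of L191A cells and of sgPOU2F3 with empty vector sgRosa cells share the empty vector sgRosa libraries with the values above, so the levels are given as values only. PAX6 had 8.78, 86.1 and 83.6 TPM in L191A sgRosa libraries, 47.9, 64.2 and 63 TPM in WT sgPOU2F3 libraries, 60.1, 60.4 and 58.9 TPM in L191A sgPOU2F3 libraries and 0.479, 0.573 and 0.854 TPM in empty vector sgPOU2F3 libraries. PAX6 was thus high in all 4 groups with a cDNA of either kind and under 1 TPM in both empty vector groups. SCIN had 0.565, 1.93 and 1.38 TPM in L191A sgRosa libraries, 106, 131 and 150.3 TPM in WT sgPOU2F3 libraries, 3.65, 3.67 and 3.66 TPM in L191A sgPOU2F3 libraries and 3.58, 3.96 and 3.24 TPM in empty vector sgPOU2F3 libraries. SCIN was high in both WT groups alone among the 6. LIN28B had 0.424, 2.11 and 2.02 TPM in L191A sgRosa libraries, 15.5, 19.4 and 19.1 TPM in WT sgPOU2F3 libraries, 1.30, 0.991 and 0.742 TPM in L191A sgPOU2F3 libraries and 0.212, 0.262 and 0.113 TPM in empty vector sgPOU2F3 libraries, which puts it with SCIN.

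CLDN1 did not keep to the lines. It had 3.76, 9.83 and 10.2 TPM in L191A sgRosa libraries, 16.8, 18.9 and 15.2 TPM in WT sgPOU2F3 libraries, 33.5, 30.7 and 31.1 TPM in L191A sgPOU2F3 libraries and 21.6, 20.7 and 22.2 TPM in empty vector sgPOU2F3 libraries, so empty vector sgRosa cells were the lowest of the 6 groups. KIT ran the other way, with 3.21, 14.8 and 12.4 TPM in L191A sgRosa libraries, 18, 19.6 and 19.8 TPM in WT sgPOU2F3 libraries, 12.5, 13.1 and 11.2 TPM in L191A sgPOU2F3 libraries and 18, 25 and 23.1 TPM in empty vector sgPOU2F3 libraries. Empty vector sgRosa cells, at 89.5 TPM or more, were the highest of the 6 groups for KIT. TUBB3 had 3.88, 4.73 and 7.47 TPM in WT sgPOU2F3 libraries and 93.4, 105 and 95.8 TPM in empty vector sgPOU2F3 libraries. L191A libraries had 5.3, 11.2 and 11.4 TPM of it with sgRosa and 8.8, 12 and 7.6 TPM with sgPOU2F3. TUBB3 was thus low in both WT and L191A cells with either guide. TFF3 had 39, 29 and 29.3 TPM in WT sgPOU2F3 libraries and 49, 41.8 and 52.7 TPM in empty vector sgPOU2F3 libraries. That gap was far narrower than with sgRosa. L191A libraries had 28.5, 19.3 and 15.1 TPM of TFF3 with sgRosa and 7.4, 10.9 and 9.06 TPM with sgPOU2F3. POU2F3 had 142, 1053 and 831 TPM in L191A sgRosa libraries, 1136, 1276 and 1049 TPM in WT sgPOU2F3 libraries, 621, 672 and 645 TPM in L191A sgPOU2F3 libraries and 253, 318 and 274 TPM in empty vector sgPOU2F3 libraries, and WT sgRosa cells had the highest level of the 6 groups.

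**Figure D5:**
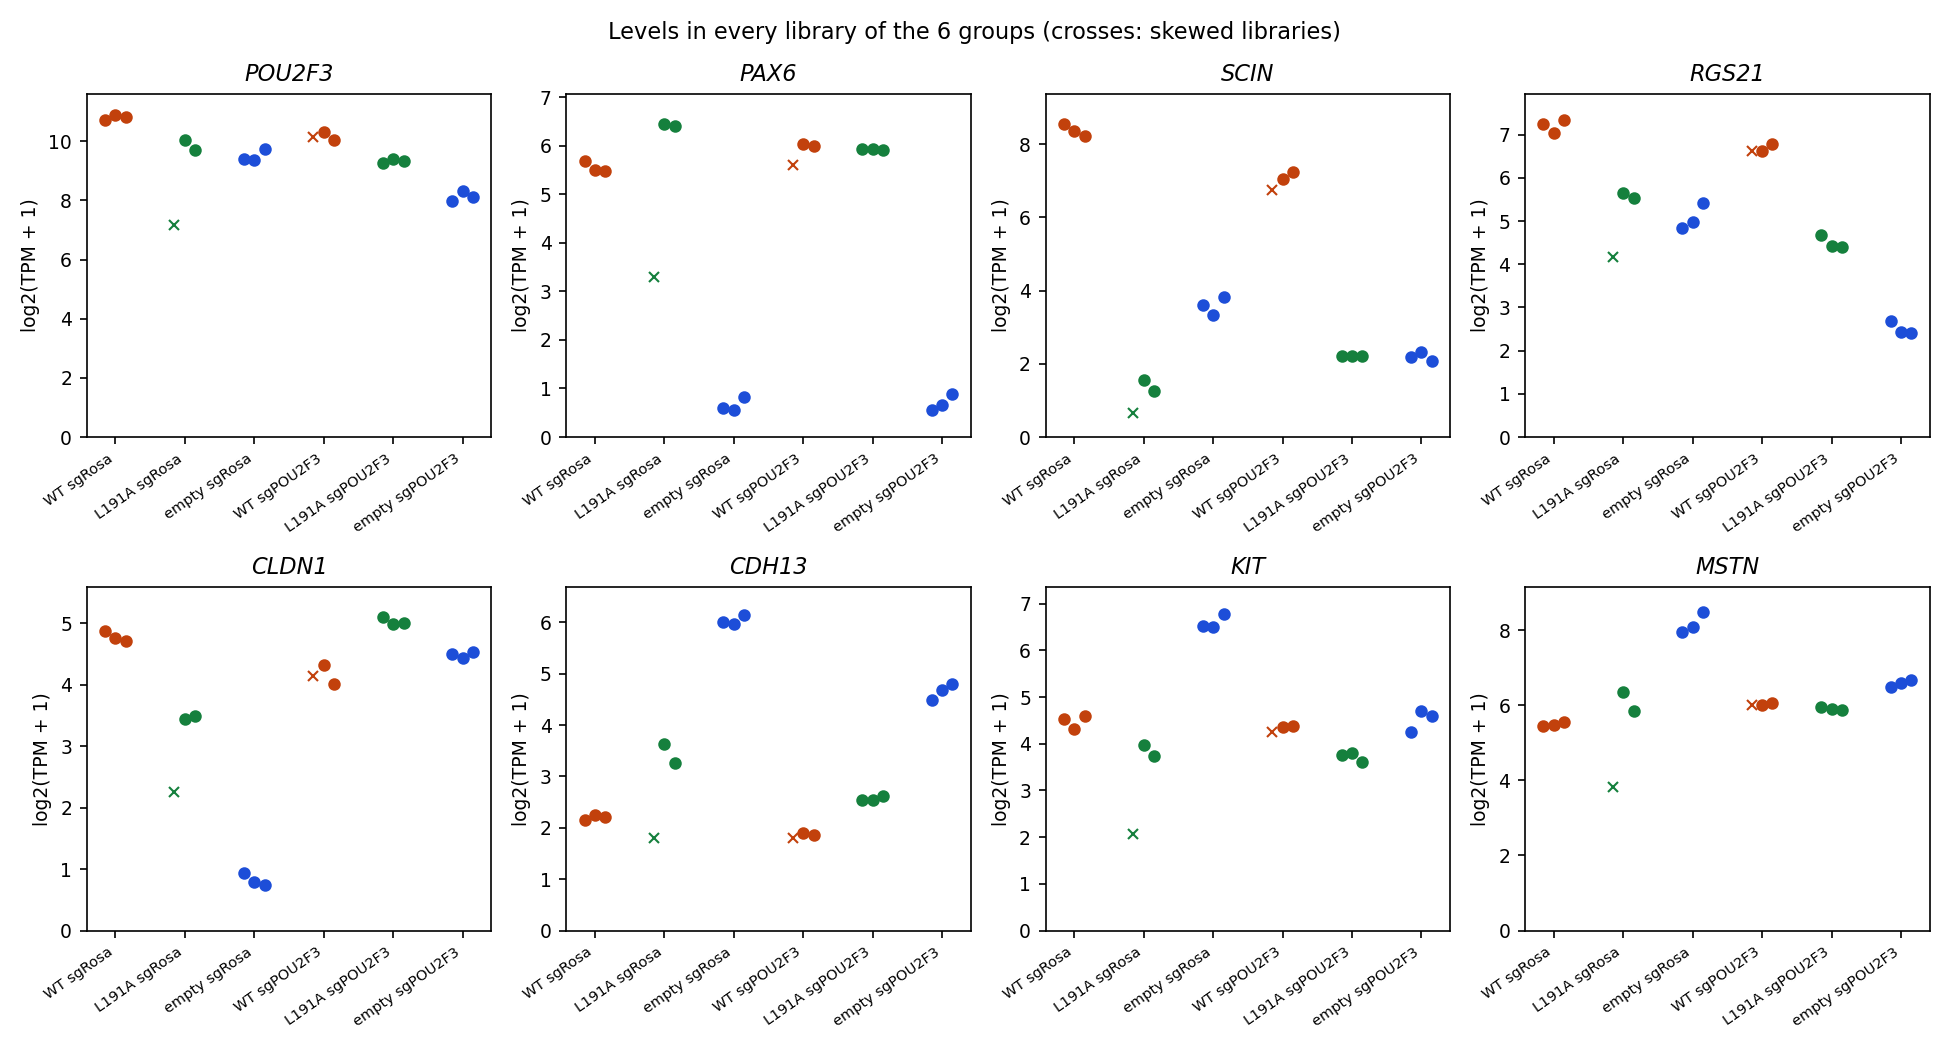
Level as log2(TPM + 1) (y axis) in each library of the 6 groups (x axis) for 8 genes named in the text, with crosses for the libraries that stood apart. PAX6 is low in both empty vector groups, SCIN is high in both WT groups, and KIT is highest and CLDN1 lowest in empty vector sgRosa cells.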

How the data were processed

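RNA from 6 of the 18 libraries was compared, 3 of the WT POU2F3 line and 3 of the empty vector line, taken 5 days after infection with sgRosa. Per the labels' protocols, TRIzol RNA went into TruSeq libraries. The deposited values were TPM per gene, made by the authors with kallisto and hg38 per the submitters' processing notes. Software versions, the transcript set and strand use were not given in the sources used here, so a gene and an overlapping or antisense partner cannot be told apart. Columns were matched to samples by name. Each column summed to 1000000, so depth is unknown and no counting interval is given.

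Of 19875 entries, 134 that named no gene were left out: 27 were symbols turned into spreadsheet dates and 107 were fragments of descriptions. They held 2.14% to 2.42% of TPM in the 6 libraries. Of the 19741 kept, 97.8% had a known name. Coordinates and transcript lengths came from GENCODE 29 (GRCh38, the assembly of hg38), with a length for 97.5% of genes tested. Promoters came from RefSeq, GRCh38.p14.

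Values were taken as log2(TPM + 1), on which fold changes of genes with low TPM come out too small. limma 3.58.1 (R 4.3.3) with an intensity trend of the variance fitted 1 coefficient per group to the 6 libraries, two-sided, with Benjamini-Hochberg adjustment over the 13293 genes and a threshold of 0.05. Differences are WT minus empty vector. The fit left 4 residual degrees of freedom, with a prior of 6.75. WT against empty vector under sgPOU2F3 was fitted to 5 libraries and the difference between guides to 11, both without WT sgPOU2F3 replicate 1. Simulated data with known changes were used to check it.

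The members and the 39 gene lists were chosen with earlier results of these data known. Lists were described by counts of called genes and medians, with no set test. Named genes were the octamer family, the 15 largest rises and falls (adjusted p under 0.05, at least 5 TPM in the higher group, no overlap of libraries, no clone or unnamed locus), up to 4 called genes with the smallest p in each list, the 5 called genes with the highest mean TPM and the defining tuft markers. Genes of neighbouring runs, GNAT3, DUSP6, SPRY4 and SPRY1 were chosen after their values were seen, and called members of some short lists were named as well. A few genes that these rules pick are not reported here.

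Alternatives were a pseudocount of 0.1 or 5, no level filter or one of 5 TPM, a block for replicate number, quantile normalization, a robust prior, median-ratio scaling, no variance trend, a spread from 16 or all 18 libraries, removal of the trend with transcript length (lowess span 0.3) and leaving out each library. The 16 libraries were all but L191A sgRosa replicate 1 and WT sgPOU2F3 replicate 1. Leaving out both WT replicate 1 and empty vector replicate 3, and the block and the left-out libraries for the difference between guides, were added after seeing the data.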

Additional observations from a re-analysis of the deposited data

Results flagged for a closer look

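Of the 40 genes named by rank or family that were tested, 19 had a WT minus empty vector difference that differed between the guides by limma at an adjusted p under 0.05. Of the 40, 30 were picked for the size of their difference with sgRosa, so neither this count nor a smaller size with sgPOU2F3 can be read against all genes. Each value below is the log2 difference with sgPOU2F3 minus that with sgRosa, from the fit over 11 libraries, and the causes were not tested.

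The widest gap was at CLDN1, at -4.29: it was higher in WT cells with sgRosa (log2 difference 3.96) and not called with sgPOU2F3 (log2 difference -0.32). TFF3 came next at 2.88, with log2 differences of -0.69 with sgPOU2F3 and -3.57 with sgRosa. MSTN was at 2.14, with -0.54 and -2.68 in that order of guides. KIT was at 1.97, and its difference with sgPOU2F3, -0.14, did not pass the test. BDNF was at -2.10, with a rise of 0.93 with sgPOU2F3 and 3.04 with sgRosa. In CLDN1 and KIT the empty vector cells with sgPOU2F3 were level with WT cells, while in the others the gap was narrower.

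Other falls that were smaller with sgPOU2F3 were IL13RA1 at 1.62, PLA2G4A at 1.53, FOXI1 at 1.11, CDH13 at 1.06, SRL at 1.02 and EMP1 at 0.76. Rises that were smaller with sgPOU2F3 were CNR1 at -1.38, POPDC3 at -1.23, RAB27B at -0.88 and BVES at -0.88. Rises that were larger with sgPOU2F3 were DLG2 at 0.80 and POU2F3 itself at 0.74. The coactivator genes C11orf53 at 0.74 and COLCA2 at 0.70 were not called with sgRosa and were higher in WT cells with sgPOU2F3, by 0.83 and 0.69 on the log2 scale.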

How the results depend on the processing

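The count of 3868 called genes was 1021 with a spread from all 18 libraries, of which 1017 were among the 3868. With a spread from 16 libraries, without L191A sgRosa replicate 1 and WT sgPOU2F3 replicate 1, it was 4596, with 3721 shared. It was 6857 without both WT replicate 1 and empty vector replicate 3, with 3840 shared. Leaving out 1 library gave 2117 to 5880. The cause of these shifts was not tested, beyond the removal of samples itself. With sgPOU2F3 the count of 3983 lay between 1215 and 6427 when 1 library was left out. The difference between guides, 2472 genes, lay between 1089 and 2819 when 1 library was left out. Genes higher by at least 2-fold, 478, were 747 with a pseudocount of 0.1, 182 with 5, 317 at a mean of at least 5 TPM (fewer genes tested) and 297 after quantile normalization. Genes lower by at least 2-fold, 100, were 54 with a pseudocount of 5, which shrinks low genes by construction. POU2F3 kept its log2 difference of 1.30 with all 18 libraries but lost its call (limma adjusted p = 0.123), and lay between 1.23 and 1.42 when 1 library was left out, past the threshold each time. It was called with 16 libraries (limma adjusted p = 7.46e-07). Of 40 named genes, 35 kept their call with all 18 libraries, 40 with 16 libraries and 37 after quantile normalization, where POU2F1 was called with a log2 difference of -0.23. No named gene changed sign while called.

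Same-numbered WT and empty vector libraries did not deviate together (r = -0.115, 0.201 and -0.238 for numbers 1 to 3), so the numbers were not taken as pairs, and not every library correlated best with its own number. With the replicate number as a block 3328 genes were called, 3241 of them shared with the fit without it, and the difference between guides had 1322 calls. Values below 1 TPM rest on few reads of unknown number, which limits genes such as EMP1 and KRT40 in WT cells.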
